A study of Mus musculus with 8 samples.

Results

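The genes described here encode the mechanotransduction channel complex of hair cells (HCs) and the tip links that pull on it: Tmc1, Tmc2, Tmie, Lhfpl5, Cib2, Cdh23, Pcdh15, Ush1c, Myo7a and Loxhd1. They were taken by symbol, and all 10 were found among the 27998 genes listed for each of 8 single-cell RNA-seq libraries of the mouse organ of Corti. The question was which of these parts are held by hair cells converted from supporting cells (SCs), compared with HCs and SCs of the same cochleae.

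Sound bends the stereocilia of an HC, and the bend stretches tip links, each a strand of cadherin 23 joined to protocadherin 15. The lower end of the strand pulls on a channel whose pore is formed by TMC proteins, held with TMIE, LHFPL5 and CIB proteins, and the upper end is anchored by harmonin and a myosin motor. In the cochlea TMC2 is known as an early postnatal pore protein that gives way to TMC1.

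Every group carried the same alleles, per the labels: Fgfr3iCre+, a tamoxifen-inducible Cre that the study describes as active in Deiters' and pillar cells, with Atoh1-HA+ (the transgene behind a CAG promoter), the HC reporter Chrna9-GFP+ and the Cre reporter Rosa26-CAG-loxP-stop-loxP-tdTomato+. Tamoxifen (Tmx) was injected at P12 to P13 in the induced groups, Coch + Tmx P26 (3 libraries) and Coch + Tmx P33 (2 libraries). The uninduced groups were Coch P12 (2 libraries) and Coch P33 (1 library). Age and induction therefore differ together between Coch + Tmx P33 and Coch P12, and how many animals gave each library is not given in the sources used here.

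Library totals ran from 3972800 to 13423524 unique molecular identifiers (UMIs), and 5966 cells passed the filters, with at most 3 barcodes shared by any pair of libraries. Clusters were made without the 10 genes, their partner and paralog lists and Atoh1. They gave 114 converted-hair-cell-like cells (cHC-like, with Ccer2, Grp and Atoh1 leading and Lhfpl5 among the 10 leading genes), 62 HC-like cells (with Ocm, Otof and Cabp2 among the leading genes), 129 SC-like cells (with Ceacam16 and Tectb among the leading genes) and 559 macrophage-like cells, used as a background that should lack HC transcripts. Detection alone did not separate the classes, since all 9 HC markers also had UMIs in cHC-like and SC-like cells and all 7 converted-cell markers in macrophage-like cells, but their summed levels did so in part. Over libraries with at least 5 cells, the converted-cell markers summed to 5054 to 6584 CPM in cHC-like cells and to at most 1346 CPM in the others. The HC markers summed to 3948 to 35400 CPM in HC-like cells, 3255 to 7425 CPM in cHC-like cells and at most 298 CPM in SC-like cells. The SC markers summed to 27240 to 53650 CPM in SC-like cells and 5873 to 27350 CPM in HC-like cells, so these ranges touched. The cHC-like cells came from 4 libraries: 29 and 6 from replicates 1 and 2 of Coch + Tmx P26, and 41 and 38 from Coch + Tmx P33. Coch + Tmx P26 replicate 3 held none, and its Atoh1 level over all cells was 12.4 CPM (UMIs of a gene per 1000000 UMIs counted), below the 16.5 to 23.5 CPM of the uninduced libraries and far below the 91.0 to 517 CPM of the other induced ones. Median mitochondrial shares were 10.7% in cHC-like, 14.5% in HC-like and 5.56% in SC-like cells, at median depths of 12960.5, 7283 and 14208 UMIs. The HC-like cells were a mixture that varied by library: Ocm, an outer HC gene, ran from 462 CPM in Coch + Tmx P26 replicate 3 to 51170 CPM in replicate 2, and Slc17a8, an inner HC gene, from 0 to 860 CPM. The part of this mixture and of RNA quality in the comparisons was not tested. Atoh1, whose counts cannot separate transgene from endogenous transcripts, was at 2253, 2705, 3322 and 3631 CPM in the 4 cHC-like sums, and at 30.1 to 637 CPM in SC-like cells.

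Of the pore genes, Tmc1 was held by HC-like cells and was nearly absent from cHC-like cells, and Tmc2 was not detected. Tmc1 (ENSMUSG00000024749, chromosome 19 from 20783456 to 21037126 in GRCm38.p6) was found at 130, 592 and 180 CPM in the HC-like cells of Coch + Tmx P26 replicates 1 to 3, at 127 and 144 CPM in Coch + Tmx P33, at 228 and 349 CPM in Coch P12 and at 609 CPM in Coch P33. In cHC-like cells it was at 0 CPM in 3 of the 4 libraries and at 4.90 CPM in Coch + Tmx P33 replicate 1. Every HC-like library stood above every cHC-like library, and SC-like cells held 4 Tmc1 UMIs in all. HC-like cells with little Ocm (Coch + Tmx P26 replicate 3) and HC-like cells with no Slc17a8 UMI (Coch P12 replicate 2, 349 CPM) both held Tmc1.

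Over the 4 libraries that hold both classes, 3 Tmc1 UMIs in 1585202 from cHC-like cells stood against 40 in 237583 from HC-like cells, a ratio of 0.0112 (95% interval 0.00223 to 0.0353, counting error only). The 3 UMIs lay in 3 different cells of Coch + Tmx P33 replicate 1, while 53 of the 62 HC-like cells of all libraries, uninduced ones included, had at least 1. Both classes had at least 5 cells only in Coch + Tmx P33. There the log2 fold change of cHC-like against HC-like cells was -5.44 ± 0.73 (SE, edgeR adjusted p = 0.00018). This test rests on 2 pairs with 1 residual degree of freedom and a spread borrowed across genes. Tmc1 had 3 UMIs in the cHC-like and 28 in the HC-like cells of these libraries, so it passed the filter on low counts through the HC-like cells. HC-like cells were higher than SC-like cells by 5.76 ± 0.57 on the log2 scale (4 libraries, edgeR adjusted p = 0.00049).

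Tmc2 (ENSMUSG00000060332, chromosome 2 from 130195194 to 130265189) had no UMI in any of the 8061 barcodes. This allows up to 1.89 CPM in cHC-like, 4.74 CPM in HC-like and 1.67 CPM in SC-like cells, and no comparison of classes could be made for it.

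**Figure D1:**
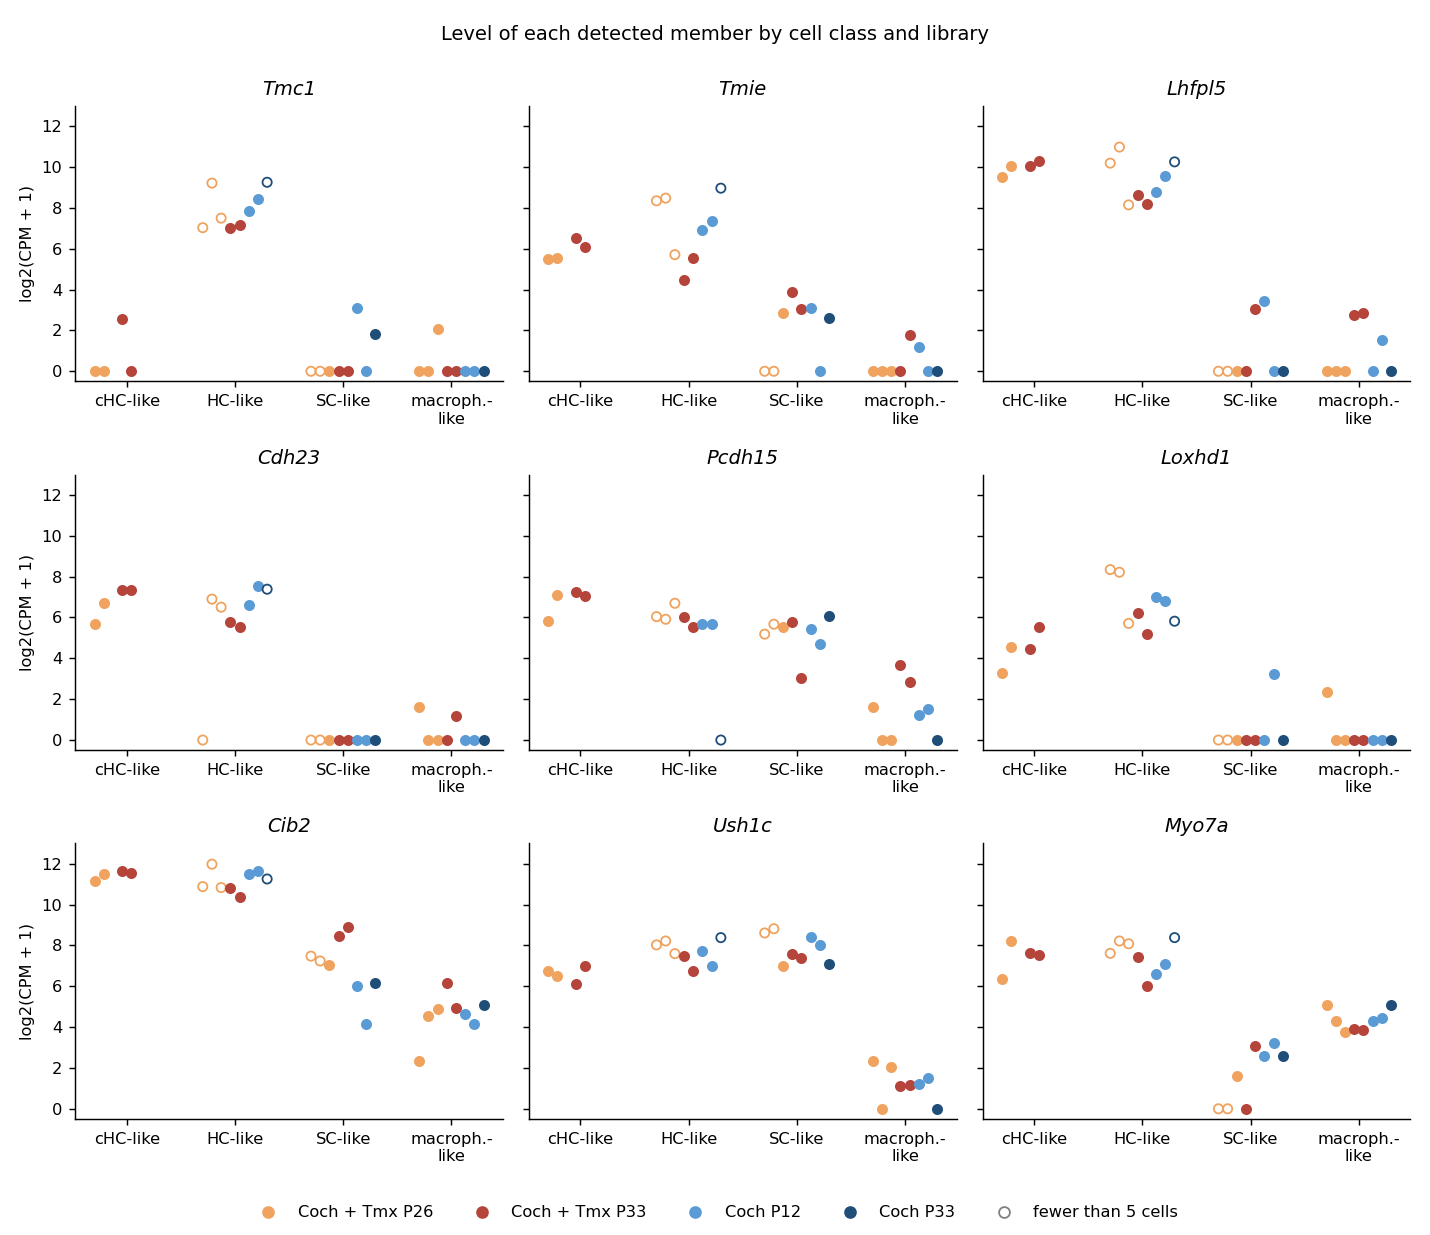
Level of the 9 detected genes (log2 of CPM + 1, vertical axis) in the 4 cell classes (horizontal axis), with 1 point per library, coloured by group; open points are sums of fewer than 5 cells. The Tmc1 points of cHC-like cells lie at 0 in 3 of 4 libraries, whereas Lhfpl5 and Cib2 lie as high in cHC-like as in HC-like cells.

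The accessory channel subunits were found in both cHC-like and HC-like cells, with overlapping ranges. Lhfpl5 (ENSMUSG00000062252, chromosome 17 from 28575369 to 28583593), which couples protocadherin 15 to the channel, was at 719 and 1046 CPM in the cHC-like cells of Coch + Tmx P26 and at 1043 and 1246 CPM in those of Coch + Tmx P33. HC-like cells held 282 to 2014 CPM over the 8 libraries, a range that includes sums of 3 or 4 cells, and the cHC-like levels lay within it. In sums of at least 5 cells, HC-like cells held 288 to 761 CPM and cHC-like cells 719 to 1246 CPM, so these ranges overlapped only at their ends. SC-like cells held 0 to 10.0 CPM, and no SC-like library came near the cHC-like levels. In the 2 Coch + Tmx P33 libraries, where cHC-like and SC-like cells could be compared, 1318 UMIs stood against 1, a ratio of 408 (95% interval 73.0 to 16110). Macrophage-like cells of these 2 libraries held 5.86 and 6.20 CPM.

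Cib2 (ENSMUSG00000037493, chromosome 9 from 54544794 to 54560190), a calcium-binding partner of TMC proteins, was at 2300, 2853, 3165 and 3011 CPM in the 4 cHC-like sums and at 1325 to 4027 CPM in the 8 HC-like sums, and the ranges overlapped. SC-like cells held 16.9 to 469 CPM, which is lower in every library. The log2 fold change was 2.94 ± 0.22 (SE) for cHC-like against SC-like cells (edgeR adjusted p = 4.9e-38, from 2 pairs with 1 residual degree of freedom and a spread borrowed across genes) and 3.87 ± 0.92 for HC-like against SC-like cells (adjusted p = 0.017; 0.11 without Coch P12 replicate 1).

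Tmie (ENSMUSG00000049555, chromosome 9 from 110865687 to 110880073), a small membrane protein needed for the channel to work, was at 44.2, 45.5, 89.8 and 67.9 CPM in cHC-like cells. Over the HC-like sums it ran from 21.2 to 498 CPM in the 8 libraries, with the 4 sums of at least 5 cells at 86.8 ± 65.2 CPM (mean ± SD), and the cHC-like values lay within 1 SD of that mean. SC-like cells were at 0 to 13.6 CPM. Tmie was higher by 2.84 ± 0.60 in cHC-like (edgeR adjusted p = 1.8e-05) and by 3.23 ± 0.82 in HC-like cells (adjusted p = 0.021), both log2 against SC-like cells. With DESeq2 the first adjusted p was 0.24. The SC-like cells of these tests held 4 and 7 Tmie UMIs. Tmie passed the filter on low counts through the hair cell classes, so the direction of both calls is in part fixed by the filter. Over the 4 libraries with both hair cell classes, Tmie was at 70.0 CPM in cHC-like against 75.8 CPM in HC-like cells, a ratio of 0.924 (95% interval 0.559 to 1.62). In the Coch + Tmx P33 libraries alone, 92 UMIs stood against 7, a ratio of 2.33 (1.09 to 5.96). Tmie was higher in the cHC-like cells of both of these libraries, but the test did not pass (edgeR adjusted p = 0.12). The direction therefore depends on the libraries used.

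Because Lhfpl5 was abundant and Tmc1 nearly absent in cHC-like cells, the 250 bases before their RefSeq start sites (GRCm38.p6) are shown, with capitals marking the letters CAGCTG, an E-box form that ATOH1 and related factors are known to bind. The searched letters were CAGCTG and CATCTG on both strands. Both windows lie inside the gene spans given above, so each precedes an internal start site and not the outer end of its gene.

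Lhfpl5, chr17:28575469-28575718, plus strand: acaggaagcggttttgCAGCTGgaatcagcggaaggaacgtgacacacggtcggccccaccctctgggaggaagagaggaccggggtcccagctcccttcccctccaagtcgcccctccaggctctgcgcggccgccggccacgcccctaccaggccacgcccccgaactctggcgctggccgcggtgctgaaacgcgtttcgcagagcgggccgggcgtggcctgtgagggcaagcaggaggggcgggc

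Tmc1, chr19:20954203-20954452, minus strand: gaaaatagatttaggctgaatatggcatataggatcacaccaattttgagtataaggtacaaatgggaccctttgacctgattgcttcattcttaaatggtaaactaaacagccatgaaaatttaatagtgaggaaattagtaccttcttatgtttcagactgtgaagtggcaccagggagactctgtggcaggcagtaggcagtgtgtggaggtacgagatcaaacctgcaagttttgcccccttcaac

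Of the 8 genes with a window of this kind, 2 held either set of letters, Lhfpl5 and Tmie, each with 1 CAGCTG. Over all 32851 RefSeq windows of the same length, 25.5% held either set, so the count among the 8 is near the background.

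The tip link genes were both present in cHC-like cells. Cdh23 (ENSMUSG00000012819, chromosome 10 from 60302748 to 60696513), the upper strand, was at 50.1 and 102 CPM in the cHC-like cells of Coch + Tmx P26 and at 160 and 163 CPM in those of Coch + Tmx P33. HC-like cells ran from 0 to 187 CPM, and from 45.1 to 187 CPM in sums of at least 5 cells. No Cdh23 UMI was found in 129 SC-like cells, a limit of 1.67 CPM over 1802255 UMIs, and the cHC-like level in Coch + Tmx P33 was at least 19.3-fold higher than the limit for SC-like cells of the same libraries, with the HC-like level at least 26.6-fold higher (edgeR adjusted p = 1.3e-16 and 0.0087).

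Pcdh15 (ENSMUSG00000052613, chromosome 10 from 73096277 to 74649831), the lower strand, was also found outside hair cells. It was at 56.0, 136, 152 and 130 CPM in cHC-like cells, 0 to 103 CPM in HC-like cells and 7.33 to 65.2 CPM in SC-like cells, so HC-like and SC-like values overlapped. In HC-like sums of at least 5 cells the range was 45.1 to 63.6 CPM, so the 0 comes from a smaller sum. SC-like cells in turn were above macrophage-like cells by 2.83 ± 0.55 on the log2 scale (6 libraries, edgeR adjusted p = 0.00049). Macrophage-like cells of all libraries held 18 Pcdh15 UMIs. The gene passed the filter on low counts through the SC-like cells, so the direction of this call is in part fixed by the filter. The cHC-like cells were above SC-like cells by 2.04 ± 0.41 (adjusted p = 7.0e-06; 0.18 with DESeq2).

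At the upper end of the tip link, the scaffold and the motor behaved differently from each other. Ush1c (ENSMUSG00000030838, chromosome 7 from 46195350 to 46238490), which encodes harmonin, was at 106, 90.9, 66.9 and 125 CPM in cHC-like cells, 108 to 332 CPM in HC-like cells and 127 to 450 CPM in SC-like cells. The SC-like and HC-like ranges overlapped, and SC-like cells stood 6.69 ± 0.35 (log2) above macrophage-like cells (edgeR adjusted p = 7.2e-10), which held 0 to 4.08 CPM. In that test Ush1c passed the filter on low counts through the SC-like cells, so the direction of the call is in part fixed by the filter. In cHC-like cells Ush1c was lower than in SC-like cells by -0.98 ± 0.31 (edgeR adjusted p = 0.0053). This call was lost with DESeq2 (0.70), with cells under 10% mitochondrial UMIs (0.55) and without the library block (0.053).

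Myo7a (ENSMUSG00000030761, chromosome 7 from 98051054 to 98119522), which encodes myosin VIIA, was at 79.5, 296, 194 and 185 CPM in cHC-like and at 63.1 to 332 CPM in HC-like cells. SC-like cells held 0 to 8.44 CPM. Macrophage-like cells held 12.8 to 33.4 CPM, 78 UMIs in all, so they cannot serve as a background for this gene. Pooled over libraries, SC-like cells were at 3.88 CPM, above stromal-like (0.49 CPM) and erythroid-like cells (0.33 CPM) and below nonsensory epithelial-like cells (6.43 CPM). Cells of the cHC-like class held 220 UMIs against 1 in the SC-like cells of the same 2 libraries, a ratio of 68.0 (95% interval 12.1 to 2698), and HC-like cells were above SC-like cells by 4.40 ± 0.68 on the log2 scale (edgeR adjusted p = 0.0027).

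Loxhd1 (ENSMUSG00000032818, chromosome 18 from 77281658 to 77442932), a protein of the stereocilia needed for mechanotransduction in maturing HCs, was low in cHC-like cells at 8.84, 22.7, 21.2 and 45.9 CPM. HC-like cells held 36.1 to 324 CPM, and in 3 of the 4 libraries with both classes the HC-like value was the higher. SC-like cells held 1 UMI in all. HC-like cells were above SC-like cells by 5.64 ± 0.92 (log2, edgeR adjusted p = 0.0035), while cHC-like against SC-like cells was not tested because the counts were too low.

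**Figure D2:**
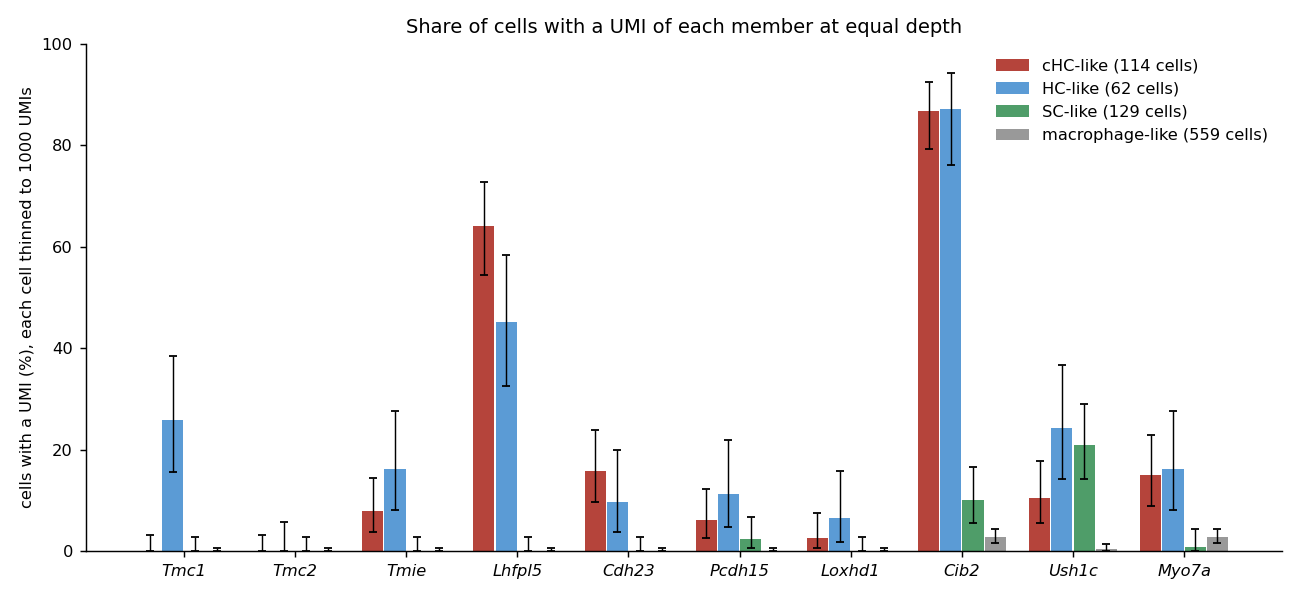
Share of cells with at least 1 UMI of each gene (%, vertical axis) after every cell was thinned to 1000 UMIs, for cHC-like, HC-like, SC-like and macrophage-like cells; error bars are exact 95% binomial intervals for counting error only. Tmc1 was found in 25.8% of HC-like and 0% of cHC-like cells, whereas Cib2 was found in 87.1% and 86.8%. The HC-like cells are pooled over all libraries, uninduced ones included, while the cHC-like cells came from induced libraries only.

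At equal depth, Tmc1 again differed between the hair cell classes from cell to cell. The HC-like cells came from all 8 libraries, 28 and 6 of them from Coch P12 and 3 from Coch P33. The cHC-like cells came from induced libraries only, so age and library also differ in these shares. With each cell thinned to 1000 UMIs, 0 of 114 cHC-like cells had a Tmc1 UMI (exact 95% upper limit 3.18%, for cells with a UMI at this depth and not for cells that express the gene), against 16 of 62 HC-like cells (25.8%, exact 95% interval 15.5 to 38.5). Lhfpl5 was found in 64.0% of cHC-like (54.5 to 72.8) and 45.2% of HC-like cells (32.5 to 58.3), and in no SC-like or macrophage-like cell. The share for Cib2 was 86.8% in cHC-like, 87.1% in HC-like, 10.1% in SC-like and 2.68% in macrophage-like cells. Unthinned, 3 of 114 cHC-like cells held Tmc1 (2.63%) against 85.5% of HC-like cells, and 94.7% against 98.4% held Lhfpl5. Unthinned, at median depths of 12960.5 and 7283 UMIs, 36 of 114 cHC-like and 10 of 62 HC-like cells had UMIs of Tmie, Lhfpl5, Cib2, Cdh23 and Pcdh15 together, while at 1000 and at 2000 UMIs per cell 0 cells of either class did. At 1000 UMIs, 73 of 73 cHC-like cells with Lhfpl5 had no Tmc1 UMI, against 20 of 28 HC-like cells; at 2000 UMIs these were 89 of 90 against 18 of 32, and unthinned 105 of 108 against 8 of 61.

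Counted over the whole set, 7 of the 10 genes were tested in cHC-like against SC-like cells and all 7 passed the threshold, 6 higher and 1 (Ush1c) lower, against 38.0% of the 5780 genes tested, 20.9% higher and 17.1% lower. With cells under 10% mitochondrial UMIs 3 passed. Lhfpl5, Cdh23, Myo7a and Tmie had 1, 0, 1 and 4 UMIs in the SC-like cells of these 2 libraries and could be tested only through the cHC-like cells. The count of higher genes is therefore in part fixed by the filter on low counts. The median log2 fold change of the 7 was 2.94, also with Cdh23 at its bound, beside 0.10 over all genes tested. In HC-like against SC-like cells 7 of 8 tested passed, all higher, against 28.6% of 3065 genes, 16.8% higher and 11.8% lower, and the 8th, Ush1c, was at -0.59 ± 0.28 (edgeR adjusted p = 0.14). Tmc1, Lhfpl5, Cdh23, Loxhd1, Myo7a and Tmie had 0 to 7 UMIs in the SC-like cells of the 4 libraries and were tested through the HC-like cells. This count too is therefore in part fixed by the filter. The median was 5.02, or 4.57 with Cdh23 at its bound, beside -0.07 over all genes. Without Coch P12 replicate 1 the count of 7 fell to 3.

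In cHC-like against HC-like cells, 5 of the 9 tested passed: Tmc1 was lower, and Lhfpl5, Cdh23, Pcdh15 and Cib2 were higher, by 1.86 ± 0.24, 1.83 ± 0.44, 1.49 ± 0.44 and 1.10 ± 0.17 on the log2 scale (edgeR adjusted p = 0.00013, 0.0089, 0.027 and 0.00057), against 21.2% of the 5550 genes tested, 10.5% higher and 10.7% lower. The median of the 9 was 1.10, beside 0.08 over all genes. Tmie (1.29 ± 0.56, adjusted p = 0.12), Myo7a (0.87 ± 0.39, 0.13), Loxhd1 (-0.60 ± 0.62, 0.56) and Ush1c (-0.49 ± 0.43, 0.47) did not pass. The test rested on the 2 Coch + Tmx P33 libraries, with 7 HC-like cells each; with the 4 libraries that had at least 3 cells of both classes only Tmc1 passed (-5.93 ± 0.86, edgeR adjusted p = 0.0033), and Lhfpl5 was at 0.82 ± 0.49 (0.31), Cib2 at 0.78 (0.16), Cdh23 at 1.64 (0.055) and Pcdh15 at 1.40 (0.063). With doublets kept, 1 gene passed. Tmc1 passed in each of the 5 alternatives that gave a value, but these draw largely on the same cells. In the main test it passed the filter on low counts through the HC-like cells, so the direction of its call is in part fixed by the filter.

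**Figure D3:**
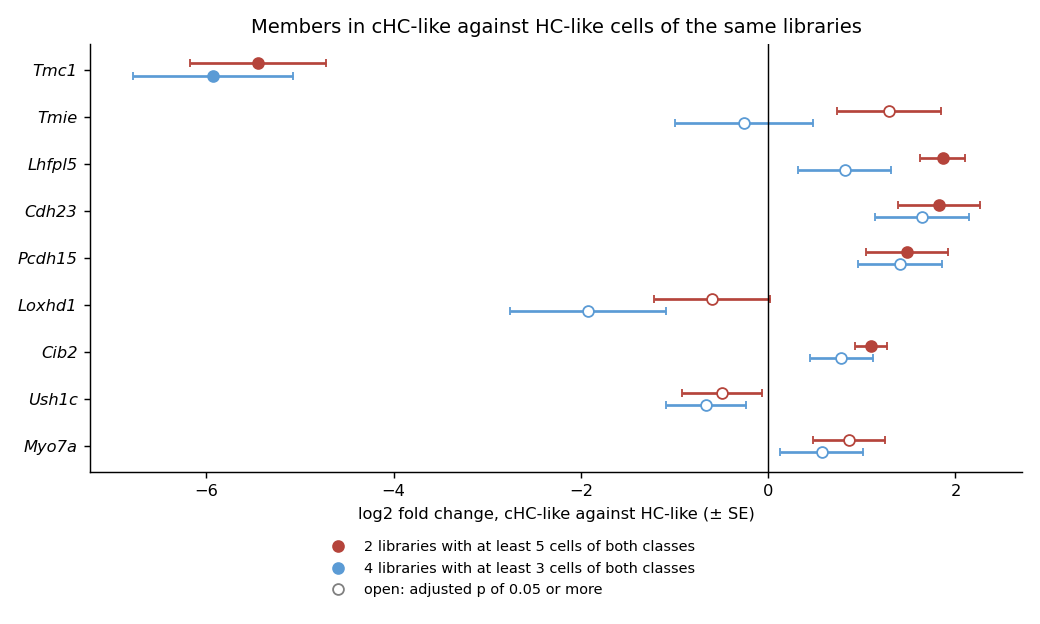
Log2 fold change of cHC-like against HC-like cells (horizontal axis, ± SE) for the 9 detected genes, from the 2 libraries with at least 5 cells of both classes and from the 4 libraries with at least 3; open points have an adjusted p of 0.05 or more. Tmc1 lies at -5.44 and -5.93, and it is the only gene past the threshold in both.

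Genes that work with the channel were read from 2 further lists, 18 partners and 16 paralogs or other mechanosensitive channels. Of the partners, 9 could be tested in cHC-like against SC-like cells (Tomt, Cib3, Myo15, Grxcr1, Atp2b2, Clrn1, Ptprq, Adgrv1 and Dfnb59). All 9 had 0 UMIs in the SC-like cells of these 2 libraries and 35 to 209 in the cHC-like cells; they passed the filter only through the cHC-like cells, so that all 9 were called higher (20.9% of all genes tested were) was fixed by the filter. Tomt, which is needed to bring TMC1 to the stereocilia, was at 23.6 and 136 CPM in the cHC-like cells of Coch + Tmx P26 and at 160 and 143 CPM in those of Coch + Tmx P33, beside 108 to 583 CPM in HC-like cells. In Coch + Tmx P33, cHC-like and HC-like cells differed in Tomt by 0.11 ± 0.35 (log2, edgeR adjusted p = 0.87), while over the 4 libraries with both classes it was at 124 against 206 CPM, a ratio of 0.600 (95% interval 0.436 to 0.838). Myo15, the motor that lengthens stereocilia, was at 85.4 to 202 CPM in cHC-like and 9.01 to 277 CPM in HC-like cells. Atp2b2, their calcium pump, was at 20.6 to 82.6 CPM in cHC-like and 12.8 to 454 CPM in HC-like cells. Over the 4 libraries with both classes it was at 63.7 against 109 CPM, a ratio of 0.582 (0.375 to 0.934). In Coch + Tmx P33 alone the Atp2b2 ratio was 1.15 (0.653 to 2.19), and the classes differed by 0.31 ± 0.51 (log2, edgeR adjusted p = 0.74). The direction therefore depends on the libraries used. In HC-like against SC-like cells, the 5 partners that could be tested, Tomt, Atp2b2, Myo15, Clrn1 and Dfnb59, had 36 to 110 UMIs in HC-like and 1 to 3 in SC-like cells; they too passed the filter through the class where they are high, and all 5 were called higher, against 16.8% of all genes tested.

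Cib3 and Lhfpl2, of the channel gene families, had UMIs in cHC-like cells and none in HC-like cells. Cib3, the close paralog of Cib2, was at 76.6 and 34.1 CPM in the cHC-like cells of Coch + Tmx P26 and at 62.0 and 213 CPM in those of Coch + Tmx P33. No Cib3 UMI was found in any HC-like or SC-like cell, limits of 4.74 and 1.67 CPM. These limits are for all libraries together; those of the HC-like cells in the single libraries were 195 and 178 CPM in Coch + Tmx P26 replicates 1 and 2, above the cHC-like values there, and 31.8 and 27.0 CPM in Coch + Tmx P33, below them. Over the 4 libraries with both classes the cHC-like level was at least 9.14-fold higher than the HC-like limit (test in Coch + Tmx P33: edgeR adjusted p = 0.00052; 0.57 with DESeq2). Lhfpl2, a paralog of Lhfpl5, was at 67.8, 102, 57.1 and 86.2 CPM in cHC-like cells and had no UMI in HC-like cells, at least 5.70-fold higher by the same bound (edgeR adjusted p = 0.0037). Grxcr1, a gene needed for stereocilia to form, was at 47.1 to 114 CPM in cHC-like and 0 to 59.2 CPM in HC-like cells, the latter including sums of 3 or 4 cells. The log2 fold change was 2.06 ± 0.58 (edgeR adjusted p = 0.021, with 0.35 by DESeq2 and 0.082 with doublets kept). In the tested libraries it had 113 UMIs in cHC-like and 5 in HC-like cells. Grxcr1 thus passed the filter on low counts through the cHC-like cells, and its direction is in part fixed by the filter. Vezt, an adherens junction protein also placed at the ankle links of stereocilia, was lower in cHC-like than in HC-like cells by -1.57 ± 0.52 on the log2 scale (edgeR adjusted p = 0.048). Its adjusted p was 0.73 with DESeq2, 0.30 with doublets kept and 0.11 with no filter on low counts. Of the 11 partners tested in this comparison 2 were higher and 1 lower, and of the 3 paralogs 1 was higher, beside 10.5% higher and 10.7% lower over all genes. In the Coch + Tmx P33 libraries Cib3 had 154 UMIs in cHC-like and 0 in HC-like cells, and Lhfpl2 had 82 and 0. Both passed the filter on low counts only through the cHC-like cells, so that they were called higher was fixed by the filter. Of the 5 paralogs tested in cHC-like against SC-like cells 2 were higher and 2 lower, Lhfp (-3.81 ± 0.82, edgeR adjusted p = 2.2e-05) and Cib1 (-1.15 ± 0.31, 0.00097), beside 20.9% higher and 17.1% lower over all genes. Lhfpl2 and Lhfpl4, the higher ones, had 0 and 1 UMIs in SC-like cells. In HC-like against SC-like cells 0 of 1 paralog passed (Cib1, edgeR adjusted p = 0.094; 1 at an unadjusted p under 0.05).

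**Figure D4:**
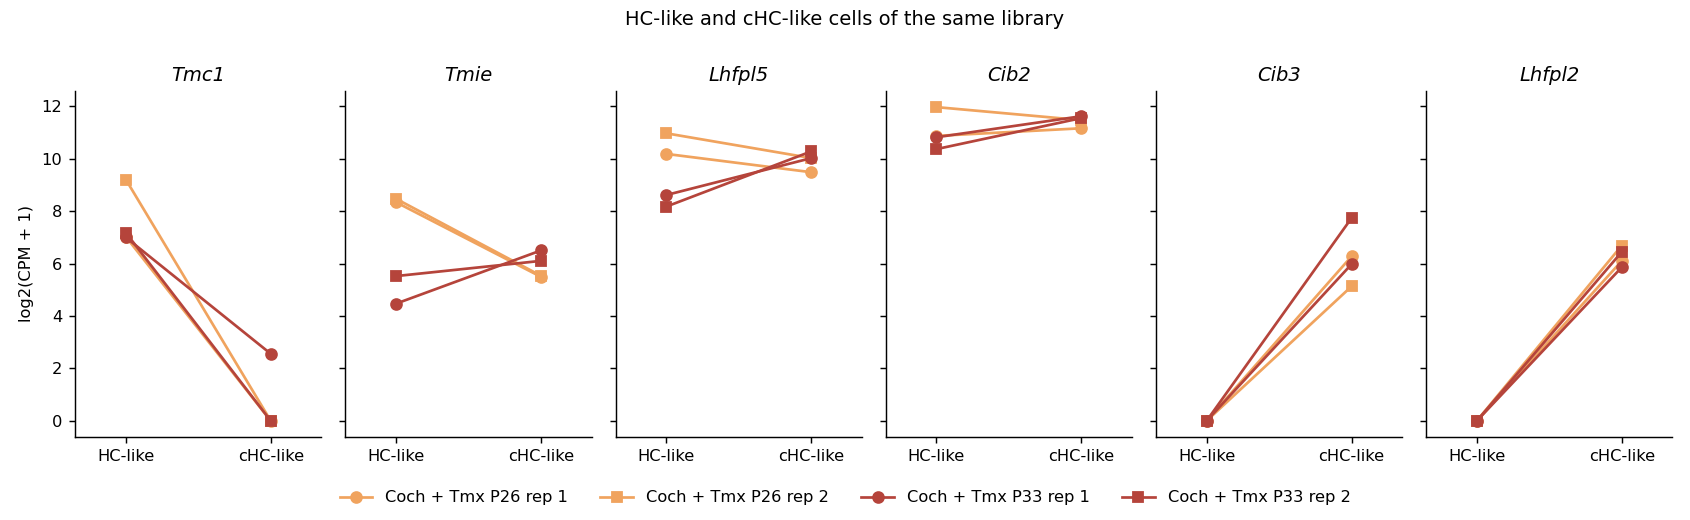
Level (log2 of CPM + 1, vertical axis) in the HC-like and the cHC-like cells of the same library for Tmc1, Tmie, Lhfpl5, Cib2, Cib3 and Lhfpl2, with 1 line per library. All 4 lines fall for Tmc1, and those for Tmie and Lhfpl5 run in both directions. For Cib3 and Lhfpl2 the HC-like points are at 0 UMIs, and in the Coch + Tmx P26 libraries the limits of 195 and 178 CPM lie above the cHC-like values, so those lines have no measurable direction.

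In cHC-like cells, no difference with time after induction passed the test. Of the 8 genes tested in Coch + Tmx P33 relative to the P26 group, 0 passed (edgeR; 1 at an unadjusted p under 0.05, 0 with DESeq2), against 2.41% of the 6318 genes tested. The one at an unadjusted p under 0.05 was Cdh23, with both P33 values (160 and 163 CPM) above both P26 values (50.1 and 102 CPM) and a log2 fold change of 1.27 ± 0.35 (edgeR adjusted p = 0.076; 0.034 without Coch + Tmx P26 replicate 2, which held 6 cells). Tmc1 was at 0, 0, 4.90 and 0 CPM and was not tested.

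In HC-like cells, 0 of 7 genes tested passed between Coch + Tmx P33 and Coch P12 (edgeR; 3 at an unadjusted p under 0.05, 0 with DESeq2), against 1.65% of 1941 genes. Tmc1 was at 127 and 144 CPM against 228 and 349 CPM, a log2 fold change of -1.09 ± 0.41 (edgeR adjusted p = 0.14). Tmie (-2.01 ± 0.57, adjusted p = 0.080) and Cib2 (-1.02 ± 0.31, 0.098) also had both Coch + Tmx P33 values below both Coch P12 values. Without Coch P12 replicate 1 a single Coch P12 library was left, and calls then rose over all genes as well as among the members. Ocm was lower too in these HC-like cells, at 4972 and 1965 CPM against 17380 and 30770 CPM, so the mixture of HC types and the level per cell cannot be told apart.

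SC-like cells differed between the same groups in 1 of the 2 genes tested, against 7.61% of 2891 genes. Cib2 was at 348 and 469 CPM in Coch + Tmx P33 and at 62.5 and 16.9 CPM in Coch P12, a log2 fold change of 3.04 ± 0.46 (edgeR adjusted p = 0.0051; 0.071 without Coch + Tmx P33 replicate 2). It was at 70.2 CPM in Coch P33 and 129 CPM in Coch + Tmx P26 replicate 3, and at 177 and 150 CPM, from 5 and 3 UMIs, in the other Coch + Tmx P26 libraries. The 2 libraries with the most cHC-like cells were the highest. Atoh1 in macrophage-like cells was at 87.9 and 8.69 CPM in Coch + Tmx P33 and at 3.93 and 3.73 CPM in Coch P12. Macrophage-like cells of Coch + Tmx P33 held 71.5 and 29.8 CPM of Cib2 against 23.6 and 16.8 CPM in Coch P12, and Atoh1 in SC-like cells was at 402 and 637 CPM against 52.5 and 84.4 CPM; the part of free RNA in the Cib2 difference was not tested. Lhfpl5, which was also abundant in cHC-like cells, was at 0 and 7.33 CPM in the same SC-like cells. The other gene tested, Ush1c, was at 190 and 169 CPM against 338 and 262 CPM (-0.81 ± 0.33, edgeR adjusted p = 0.19). In HC-like against SC-like cells, the difference between the groups passed for 1 of 8 genes, Cib2 (-4.10 ± 0.54, edgeR adjusted p = 1.8e-06), against 5.74% of 3065 genes. All 3 members tested in SC-like against macrophage-like cells, Ush1c, Pcdh15 and Cib2, were higher in SC-like cells. Of the 7404 genes tested, 55.4% passed in either direction and 1870 were higher. Ush1c and Pcdh15 had 7 and 18 UMIs in the macrophage-like cells of all libraries and passed the filter on low counts through the SC-like cells. Their direction was therefore in part fixed by the filter.

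**Figure D5:**
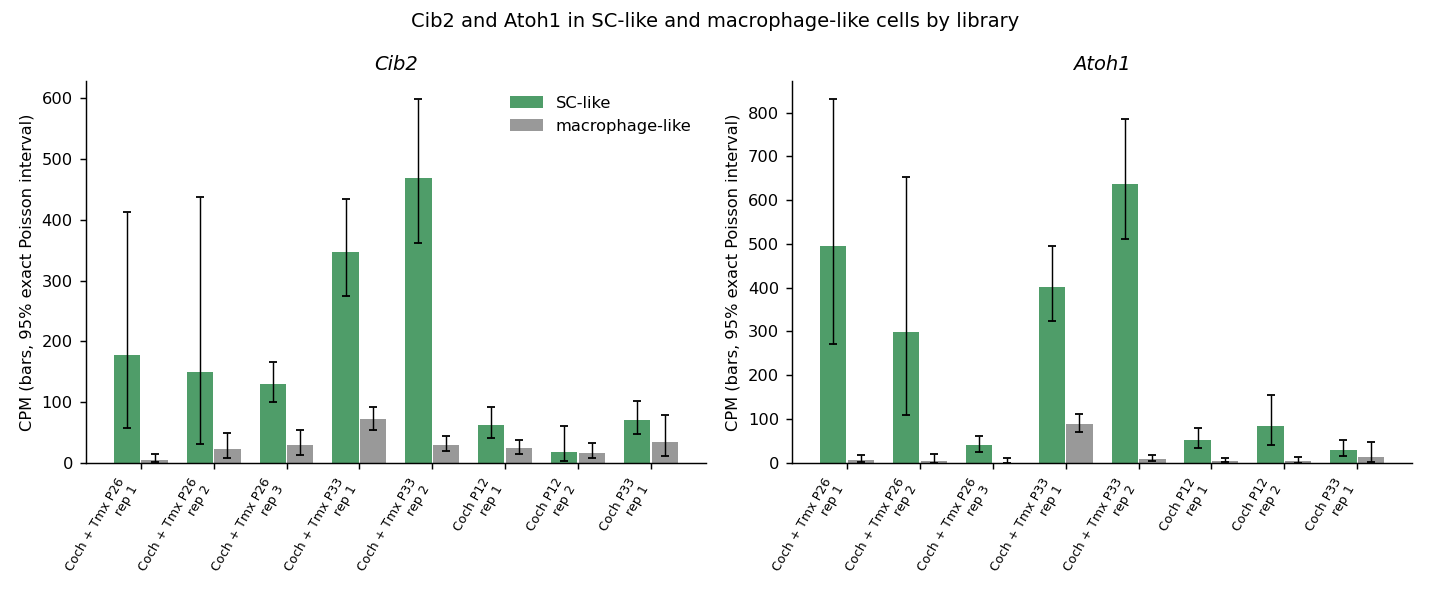
Level of Cib2 and Atoh1 (CPM, vertical axis) in SC-like and macrophage-like cells of each library, with exact 95% Poisson intervals for counting error only. SC-like Cib2 was highest in the 2 Coch + Tmx P33 libraries, at 348 and 469 CPM, where SC-like Atoh1 was at 402 and 637 CPM.

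Summed over all cells of a library, where cell makeup and level per cell cannot be told apart, 0 of 9 genes passed between the 5 induced and 3 uninduced libraries, as did 0 of all 13836 genes tested (edgeR, so 0.00% called; 5 and 1948 at an unadjusted p under 0.05), while DESeq2 called 3 and 617. Lhfpl5 was at 53.7, 41.0 and 3.95 CPM in Coch + Tmx P26, 147 and 130 CPM in Coch + Tmx P33, 8.30 and 6.58 CPM in Coch P12 and 4.70 CPM in Coch P33, a log2 fold change of 3.34 ± 0.91 (edgeR adjusted p = 0.18, DESeq2 0.012). The 4 libraries with cHC-like cells stood above the rest, and Coch + Tmx P26 replicate 3, which had none, was below the uninduced libraries. Myo7a (2.15 ± 0.48, 0.13, DESeq2 0.0014) and Cib2 (1.91 ± 0.58, 0.20, DESeq2 0.014) were the others that DESeq2 called. Tmc1 was at 0.40 to 3.33 CPM in induced and 2.04 to 4.43 CPM in uninduced libraries.

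Across all cell classes, HC-like cells held 89.9% of the 159 Tmc1 UMIs and cHC-like cells 1.89%, whereas cHC-like cells held 79.7% of the 2074 Lhfpl5 UMIs, 65.7% of the 324 of Cdh23 and 55.5% of the 8313 of Cib2. Outside the sensory epithelium, Cib2 was found in neuron-like cells at 63.1 to 425 CPM over 6 libraries, Ush1c in nonsensory epithelial-like cells at 55.5 to 124 CPM over 8 libraries, and Pcdh15 in stromal-like cells at 0 to 55.4 CPM over 4 libraries. Over the 14 sums of cHC-like, HC-like and SC-like cells with at least 5 cells, the genes whose log2(CPM + 1) was most like that of Tmc1 were Slc16a7 (Pearson r = 0.978), Fign (0.970), Atp2a3 (0.967), Lgalsl (0.963) and Tpbgl (0.963); the sums share libraries, and no such value could be had for Tmc2.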

How the data were processed

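Single-cell suspensions of whole organ of Corti were profiled in 8 libraries with the 10x Chromium 3' platform. The authors deposited UMI counts per gene and barcode, made with Cell Ranger on mm10 (version not given in the sources used here), with no normalization. The genes and lists described here were chosen with earlier results of these data known. Barcodes with at least 500 genes and under 25% mitochondrial UMIs were kept and 57 doublets left out (scrublet in scanpy 1.11.5), leaving 5966 of 8061. Cells were clustered (2000 variable genes, 30 components, Leiden resolution 1.0) without the members, listed partners and paralogs, Atoh1 and 444 transcription factors, and clusters were named from fixed markers. The UMI counts of each class in each library were added up and tested with edgeR 4.0.16 (quasi-likelihood, TMM, filterByExpr, Benjamini-Hochberg over all genes, threshold 0.05), with library as block between classes of at least 5 cells (10 for cHC-like against SC-like). Tests were checked on simulated counts. The study calls replicates biological, and p-values rest on the spread between these libraries, shared in part across genes. Comparisons of cHC-like with SC-like or HC-like cells had 1 residual degree of freedom, so p-values there rest largely on the spread borrowed across genes. CPM intervals are exact Poisson, shares exact binomial, ratios exact conditional binomial, all at 95% and for counting error only; the limit of a count of 0 is 3 UMIs over the class. Alternatives were DESeq2 1.42.0, no low-count filter, a 10% mitochondrial limit, doublets kept, other clustering genes, other cell minimums and blocks, and each library left out; minimums of 3 cells, the crossed pairing and the sums without sensory cells were added after seeing the data. Genes named from the lists were at most the 5 largest calls per direction and class comparison. Replicate numbers pair nothing in the labels; same-numbered libraries' deviations correlated at -0.12 to 0.16. Gene coordinates and promoter windows are RefSeq GRCm38.p6.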

Additional observations from a re-analysis of the deposited data

Results flagged for a closer look

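Tmc1 in Coch + Tmx P26 replicate 1, at 0.40 CPM over all cells, stood apart from the other 4 induced libraries (2.87 to 3.33 CPM); that library held 2 Tmc1 UMIs, both in its 4 HC-like cells. Tmc1 in the cHC-like cells of Coch + Tmx P33 replicate 1, at 4.90 CPM, stood apart from the other 3 libraries at 0 CPM and rests on 3 UMIs. The spread of 18 sets of 4 or 5 libraries was examined in this way, and chance alone sets apart about 1 in 20.

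The difference of HC-like against SC-like cells in Cib2 differed between Coch + Tmx P33 and Coch P12 by -4.10 ± 0.54 on the log2 scale (edgeR test of the interaction, adjusted p = 1.8e-06; 5.74% of 3065 genes passed). Cib2 was lower in HC-like and higher in SC-like cells of Coch + Tmx P33, in both libraries each.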

How the results depend on the processing

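Of 303 values of single genes under the alternatives, 275 kept their direction and side of the threshold, 19 lost the call, 7 gained it and 2 reversed: Tmie in cHC-like against HC-like cells was at -0.26 with a minimum of 3 cells and at -0.42 without the library block. Of 84 member counts 72 were within 1.5 times of the reported ones. In cHC-like against SC-like cells, 7 became 4 with DESeq2 and 3 with mitochondrial UMIs under 10%. In cHC-like against HC-like cells, 5 became 3 with DESeq2, 1 with doublets kept, 1 with a minimum of 3 cells and 3 without the library block. In cHC-like cells by time, 0 became 1 with no filter on low counts, and over all cells 0 became 3 with DESeq2. The causes were not tested. Leaving out 1 library gave 3 to 7 members in HC-like against SC-like cells (3 without Coch P12 replicate 1). Between groups of HC-like, SC-like or cHC-like cells it left a single library in 1 group, so counts of members are not given there.

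Calls over all genes moved too: 2195 in cHC-like against SC-like cells became 434 with DESeq2 and 460 under the 10% limit, 878 in HC-like against SC-like cells ran from 234 to 1560, 1175 in cHC-like against HC-like cells became 242 with DESeq2 and 316 with doublets kept, 32 between HC-like groups ran from 0 to 482, 220 between SC-like groups from 41 to 535, 152 in cHC-like cells by time from 0 to 498, 176 for the difference of differences from 50 to 275, and 0 over all cells was 617 with DESeq2 and 463 without Coch P33.

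Replicate numbers are shared by the groups, but the deviations of same-numbered libraries correlated above 0.1 in 1 of the 6 pairs of groups examined (0.16, over all cells). With the replicate number as a block, members called were 0 between HC-like groups, 1 between SC-like groups, 0 in cHC-like cells by time and 0 over all cells, as without it, while calls over all genes went from 32 to 0, from 220 to 392, from 152 to 276 and from 0 to 5. The crossed pairing in HC-like cells, added after seeing the data, gave 0.

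Shares of cells depend on depth. Unthinned, cHC-like and HC-like cells held Tmie in 47.4% and 62.9%, Lhfpl5 in 94.7% and 98.4%, Cdh23 in 57.9% and 51.6%, Pcdh15 in 62.3% and 41.9%, Loxhd1 in 22.8% and 56.5%, Cib2 in 100% and 100%, Ush1c in 67.5% and 72.6%, Myo7a in 71.1% and 56.5%, and HC-like cells held Tmc1 in 85.5%. Thinned to 2000 UMIs, cHC-like cells held Lhfpl5 in 79.0%, Pcdh15 in 14.0%, Cib2 in 97.4%, Ush1c in 21.9% and Myo7a in 28.1%, and HC-like cells held Cdh23 in 21.0%, Loxhd1 in 22.6%, Cib2 in 98.4% and Myo7a in 32.3%.

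No value could be had with the 10% mitochondrial limit, the other clustering genes or a minimum of 10 cells wherever too few HC-like cells were left, or without either Coch + Tmx P33 library in the comparisons of cHC-like cells with the other classes, where no residual degree of freedom remained. With 62 HC-like cells, differences in low genes between hair cell classes are limited by depth.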
